A study of Mus musculus with 2 samples.

Results

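The Mir23, Mir24 and Mir27 genes of the mouse form paralogous clusters on chromosomes 13 and 8, and 6 of the 1973 miRNA genes counted here belong to them. The members were chosen by gene symbol: Mir23b, Mir27b and Mir3074-1 in the chromosome 13 cluster, and Mir23a, Mir27a and Mir24-2 in the chromosome 8 cluster. Mir24-1 has no row of its own in the count tables. Its hairpin lies on the strand opposite Mir3074-1, so the opposite-strand counts at Mir3074-1 were read as Mir24-1. The libraries are microRNA-seq of total RNA from whole bladders of newborn B6NCrl mice at postnatal day 0, with inserts under 30 nucleotides. There were 2 libraries in 1 group, each made from 1 bladder of a different pup of the same pregnancy, with no genotype or treatment contrast. The labels say that sex was not collected. The pups are called pup 2 and pup 1 after their labelled replicate numbers, and differences between litters were not measured.

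A cluster of this kind is transcribed as a single primary RNA, from which the nuclear enzyme Drosha cuts the hairpins and Dicer then cuts the mature arms. An Argonaute protein holds an arm and finds target messenger RNAs mainly through its seed, bases 2 to 8. The clusters are best known from endothelial cells, where miR-23 and miR-27 favour the growth of new vessels by repressing inhibitors of that growth such as Sprouty2, and miR-27 is also known as a repressor of fat cell formation. miR-24 is known for repressing cell cycle genes in human cell lines. A bladder contains smooth muscle, urothelium, connective tissue, vessels and nerves, and counts from the whole organ cannot tell fewer cells of a type from less RNA per cell.

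All 7 of these genes matched the RefSeq table of the GRCm38.p6 build. The mature arms are shown because their likeness decides which reads can be assigned to 1 locus, and capitals mark the seed. The arms mmu-miR-23b-3p and mmu-miR-3074-1-3p are named only.
mmu-miR-23a-3p: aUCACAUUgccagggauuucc
mmu-miR-23b-5p: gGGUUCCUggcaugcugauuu
mmu-miR-23a-5p: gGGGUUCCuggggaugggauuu
mmu-miR-27b-3p: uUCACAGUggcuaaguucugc
mmu-miR-27a-3p: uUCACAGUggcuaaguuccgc
mmu-miR-27b-5p: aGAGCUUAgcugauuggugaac
mmu-miR-27a-5p: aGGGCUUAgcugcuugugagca
mmu-miR-24-3p: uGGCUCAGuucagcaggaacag
mmu-miR-24-1-5p: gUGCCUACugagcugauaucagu
mmu-miR-24-2-5p: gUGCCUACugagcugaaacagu
mmu-miR-3074-5p: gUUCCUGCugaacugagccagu
The miR-27 3p arms differed at 1 of 21 positions, C19U from miR-27a to miR-27b counted from the 5′ end, so their first 18 bases are the same and they share the seed UCACAGU. Their 5p arms differed at 8 of 22 positions, and G3A put a different base into the seed. The miR-24 5p arms, of 22 bases for miR-24-2-5p and 23 for miR-24-1-5p, shared their first 16 bases and the seed UGCCUAC. They differed at 5 of 22 positions, the first of them A17U from miR-24-2-5p to miR-24-1-5p. Arms were compared position by position without gaps, so a shift by 1 base counts as several differences in both 5p pairs. The 3p arm of miR-24 is the same in both hairpins. The arm miR-3074-5p likewise occurs in the hairpins of both Mir3074-1 and Mir3074-2, and 20 of its bases in a row are the reverse complement of miR-24-3p.

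Over whole hairpins, the longest run of bases common to a pair was 20 for Mir23b and Mir23a, 20 for Mir27b and Mir27a, and 28 for Mir24-1 and Mir24-2. Mir3074-1 shared a run of 30 bases with Mir3074-2, the longest of all. With any hairpin other than its own paralog, each of these 7 genes shared a run of at most 13 bases. Reads that mapped to several places were listed as a total apart from the genes, at 24.8% of reads in pup 2 and 22.7% in pup 1. A read of the full miR-24-3p fits Mir24-1 and Mir24-2 alike, a read of the full miR-3074-5p fits Mir3074-1 and Mir3074-2 alike, and a read inside the shared 20 bases fits both Mir23 genes or both Mir27 genes. How many of these reads belong to the clusters was not tested, so the counts below can be too low by an unknown amount, and for Mir24-1, Mir24-2 and Mir3074-1 a whole mature arm cannot be placed. Among seeds, UCACAGU was found in no arm of the table other than miR-27a-3p and miR-27b-3p. The miR-24-3p seed GGCUCAG also occurs in miR-5124b, miR-6369, miR-6410 and miR-6413, whose genes had a count of 0 in both pups.

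Positions are from GENCODE M21, where the IDs of Mir23b, Mir27b and Mir3074-1 carry a later version number than in the count tables. In GRCm38 coordinates, Mir23b (ENSMUSG00000065599.1) lies on chromosome 13 at 63300484 to 63300557 and Mir27b (ENSMUSG00000065475.1) at 63300712 to 63300784, both on the plus strand. They lie inside the protein-coding gene 2010111I01Rik on the same strand, which encodes an aminopeptidase. Mir23b overlaps no exon of it, whereas Mir27b lies within an exon of a transcript annotated for nonsense-mediated decay. Mir24-1 follows at 63301208 to 63301275 on the plus strand and overlaps exons of non-coding or decay transcripts of the same gene. Mir3074-1 (ENSMUSG00000092741.1) lies at 63301199 to 63301283 on the minus strand, within Fancc, a DNA repair gene, and in none of its exons. On chromosome 8, Mir23a (ENSMUSG00000065611.1) lies at 84208518 to 84208592, Mir27a (ENSMUSG00000065444.1) at 84208672 to 84208758 and Mir24-2 (ENSMUSG00000065541.1) at 84208815 to 84208921, all on the plus strand. No protein-coding gene overlaps these 3 hairpins in GENCODE M21, and Mir24-2 overlaps by its end the long non-coding gene Gm26532.

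The chromosome 8 cluster is the more compact. The gaps between hairpins are 154 bases from Mir23b to Mir27b and 423 from Mir27b to Mir24-1, against 79 from Mir23a to Mir27a and 56 from Mir27a to Mir24-2.

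**Figure D1:**
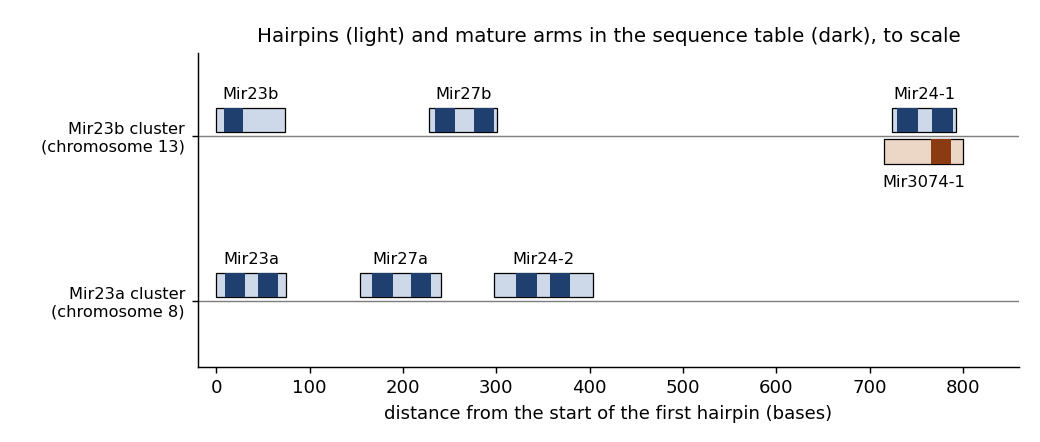
Hairpins of the Mir23b cluster (upper line) and the Mir23a cluster (lower line) plotted to scale against the distance in bases from the start of the first hairpin. Light boxes are hairpins and dark boxes are the mature arms present in the RefSeq table; boxes under the line are on the minus strand, as Mir3074-1 is.

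Each level is a gene's sense-strand count per 1000000 such counts over all genes of the library (CPM). Levels are not divided by gene length, since a read here is a short RNA and not a fragment of a long transcript, and a gene's count pools both of its arms. Errors are SDs over the pups (n = 2). Both clusters with Mir24-1 held 39059 CPM in pup 2 against 41424 CPM in pup 1, a mean of 4.02% of the gene counts. The Mir23b cluster, Mir24-1 included, came to 19891 CPM in pup 2 against 22039 CPM in pup 1, or 20965 ± 1519 CPM. The Mir23a cluster came to 19168.5 CPM in pup 2 against 19385 CPM in pup 1, or 19277 ± 152.8 CPM. The pups' values of the clusters lie apart, but the lower value of the Mir23b cluster is close to the upper value of the Mir23a cluster.

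The miR-23 genes carried nearly all of these counts. Mir23b had 64147 counts in pup 2 and 146680 in pup 1, which is 17639 and 19661 CPM, with a mean of 18649.8 ± 1429 CPM and rank 10 among all genes. Mir23a had 66949 counts in pup 2 and 138901 in pup 1, which is 18409.5 and 18618 CPM, with a mean of 18514 ± 147.3 CPM and rank 11. Both values of Mir23a lie between those of Mir23b, so the order of the pair is not resolved. The gene ranked above them was Mir22, with 17315 CPM in pup 2 against 21446 CPM in pup 1, and its range overlaps that of Mir23b. The gene ranked below was Mir335, with 17161 CPM in pup 2 against 16585 CPM in pup 1, under both values of Mir23a.

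The miR-27 genes were well below. Mir27b had 8027 counts in pup 2 and 17339 in pup 1, which is 2207 and 2324 CPM, with a mean of 2266 ± 82.6 CPM and rank 40. Its neighbours in the order, Mir200c at 2271 ± 221.3 CPM and Mir652 at 2249.9 ± 56.7 CPM, had ranges that overlap its own. Mir27a had 1640 counts in pup 2 and 3371 in pup 1, which is 451.0 and 451.8 CPM, with a mean of 451.4 ± 0.618 CPM and rank 96. Mir141 at 455.5 ± 11.5 CPM and Mir125b-2 at 440.7 ± 37.1 CPM stood next to it, again with overlapping ranges. No value of Mir27a comes near one of Mir27b.

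Counts assigned to the miR-24 genes were lower still. Mir24-2 had 1120 counts in pup 2 and 2349 in pup 1, which is 308.0 and 314.9 CPM, with a mean of 311.4 ± 4.86 CPM and rank 114. Its neighbours were Mir669l at 314.2 ± 7.09 CPM and Mir341 at 307.6 ± 9.63 CPM, both overlapping it. Mir24-1, through the opposite strand of Mir3074-1, had 108 counts in pup 2 and 287 in pup 1, which is 29.7 and 38.5 CPM, with a mean of 34.1 ± 6.20 CPM. It would rank 196 as a gene. For both genes these values leave out any read that fits both loci, as every full-length read of miR-24-3p does.

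Mir3074-1, annotated from the minus strand of the Mir24-1 locus, had the lowest level. It had 54 sense counts in pup 2 and 118 in pup 1, which is 14.8 and 15.8 CPM, with a mean of 15.3 ± 0.684 CPM and rank 227. Sense counts made up 33.3% of the counts at its locus in pup 2 (exact Clopper-Pearson 95% interval 26.1% to 41.2%) and 29.1% in pup 1 (24.8% to 33.8%), the rest being read as Mir24-1. Reads of the full miR-3074-5p or miR-24-3p, which fit a second locus, are in neither count. A count of 0 would allow 0.825 CPM in pup 2 and 0.402 CPM in pup 1, so the locus was above that limit on both strands. Mir3074-2, the copy opposite Mir24-2, has no row of its own, and the opposite strand of Mir24-2 held 0 counts in pup 2 and 1 in pup 1. Intervals and limits cover counting error only, as the reads carry no molecular identifiers.

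**Figure D2:**
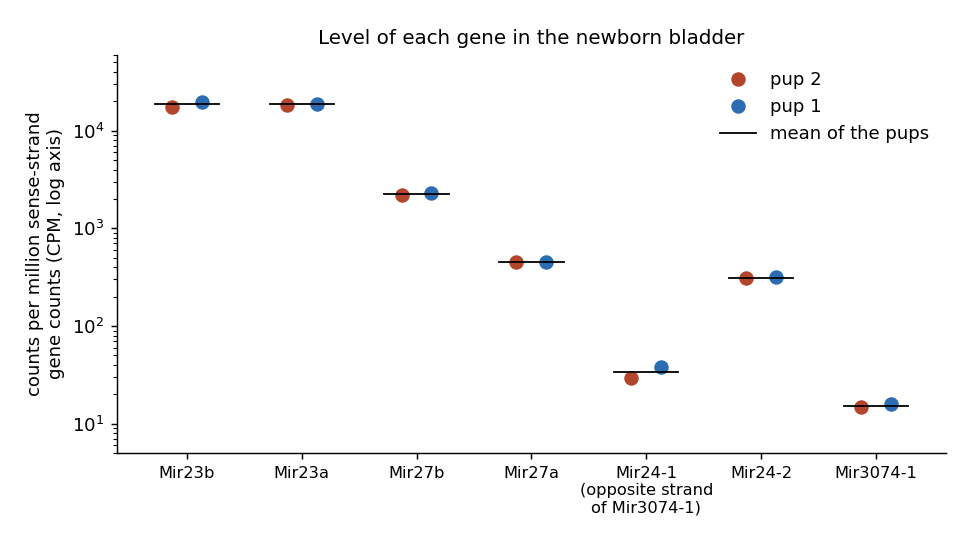
Level of each gene in CPM on a log axis, with a point for pup 2 (left) and pup 1 (right) and a bar at their mean. Mir23b and Mir23a lie side by side at the top, with pup values from 17639 to 19661 CPM, and Mir3074-1 is lowest at 14.8 and 15.8 CPM.

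In descending order of mean level the genes were Mir23b, Mir23a, Mir27b, Mir27a, Mir24-2, Mir24-1 and Mir3074-1. The pups' ranges overlap between Mir23b and Mir23a and lie apart for each of the other neighbours in this order. Mir23a was 8.17-fold above Mir27b, Mir27b 5.02-fold above Mir27a, Mir27a 1.45-fold above Mir24-2 and Mir24-2 9.14-fold above Mir24-1, as ratios of mean CPM. All 6 member genes passed the detection minimum of 1 CPM and 3 counts in both pups, as did 17.0% of all genes. The members' median level was 1359 CPM, against a median of 74.0 CPM over the 335 detected genes. Such ratios are ratios of assigned reads, without the full-length miR-24-3p reads that fit both miR-24 genes. How efficiently each arm enters a library was not measured.

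The paralogs split their counts differently from pair to pair, and these shares do not depend on how libraries are scaled. Of the Mir23b and Mir23a counts, Mir23b held 48.9% in pup 2, with an exact 95% counting interval of 48.7% to 49.2%, against 51.4% in pup 1, with 51.2% to 51.5%. The pair is thus near even, with Mir23a ahead in pup 2 and Mir23b ahead in pup 1. Of the Mir27b and Mir27a counts, Mir27b held 83.0% in pup 2 (82.3% to 83.8%) against 83.7% in pup 1 (83.2% to 84.2%). Of the Mir24-1 and Mir24-2 counts, Mir24-1 held 8.79% in pup 2 (7.27% to 10.5%) against 10.9% in pup 1 (9.72% to 12.1%). So the chromosome 13 copy was about level for miR-23, ahead for miR-27 and behind for the locus-specific reads of miR-24, in both pups for the last 2 pairs. The share of the chromosome 13 copy was lower in pup 2 in all 3 pairs, with differences of -2.43, -0.688 and -2.09 percentage points as pup 2 minus pup 1. The counting intervals lie apart for Mir23b and overlap for Mir27b and Mir24-1.

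**Figure D3:**
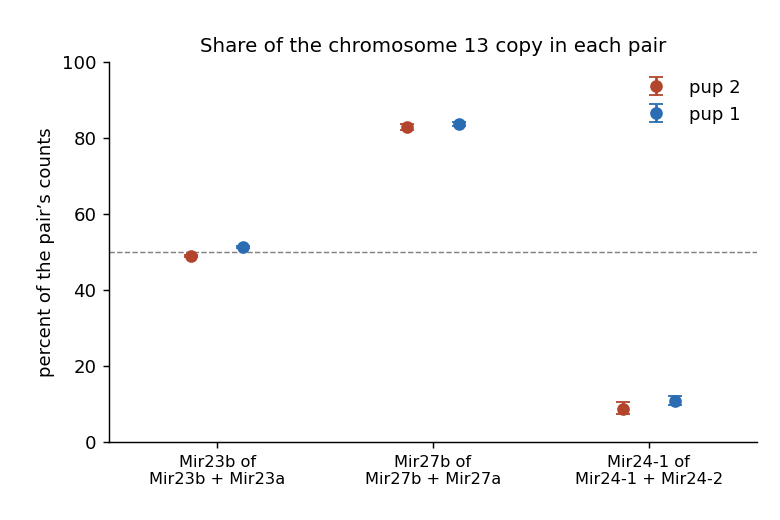
Percent of each paralog pair's counts that fell on the chromosome 13 copy, in pup 2 (left point) and pup 1 (right point), with exact 95% intervals for counting error and a dashed line at an even split. Mir23b lies at the line (48.9% and 51.4%), Mir27b above it (83.0% and 83.7%) and Mir24-1 below it (8.79% and 10.9%).

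Within a cluster the steps from miR-23 to miR-27 differed between the copies. Mir23b counts were 7.99 times those of Mir27b in pup 2 and 8.46 times in pup 1. Mir23a counts were 40.8 times those of Mir27a in pup 2 and 41.2 times in pup 1. The ratio on chromosome 8 was therefore 5.11 times that on chromosome 13 in pup 2 and 4.87 times in pup 1, far beyond the difference between the pups. Mir27b counts were 74.3 times those of Mir24-1 in pup 2 and 60.4 times in pup 1. Mir27a counts were 1.46 times those of Mir24-2 in pup 2 and 1.44 times in pup 1. In shares, Mir23a made up 96.0% of its cluster's counts in each pup, Mir27a 2.35% in pup 2 and 2.33% in pup 1, and Mir24-2 1.61% in pup 2 and 1.62% in pup 1. In the other cluster, Mir23b made up 88.7% in pup 2 and 89.2% in pup 1, and Mir27b 11.1% in pup 2 and 10.5% in pup 1. Mir24-1 made up 0.149% in pup 2 and 0.175% in pup 1, and Mir3074-1 0.0747% in pup 2 and 0.0718% in pup 1.

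Uneven counts between hairpins of a cluster were also found in other clusters. Of 10 other pairs listed, each from 1 cluster, 9 had both genes found under the symbols used. Their ratios of the higher gene to the lower had a median of 2.55 and ran from 1.02 to 389.0. Not every pair is adjacent: Mir18 and Mir19a lie between Mir17 and Mir20a. Both Mir23b over Mir27b and Mir23a over Mir27a had 3 of these pairs above them: Mir99a over Mirlet7c-1, Mir214 over Mir199a-2, and Mir143 over Mir145a, the smooth muscle pair, at 43.2 in pup 2 and 44.5 in pup 1. Mirlet7c-1 and Mir199a-2 have further copies by name, Mirlet7c-2 and Mir199a-1. Reads that fit several copies are missing from their counts, which can raise those ratios by an unknown amount. How far they do was not tested. The ratio within a pair moved little between pups on chromosome 8, with log2 differences, pup 2 minus pup 1, of -0.013 for Mir23a over Mir27a and 0.029 for Mir27a over Mir24-2. On chromosome 13 it was -0.08 for Mir23b over Mir27b and 0.30 for Mir27b over Mir24-1. The 9 other pairs had a median absolute difference of 0.15.

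**Figure D4:**
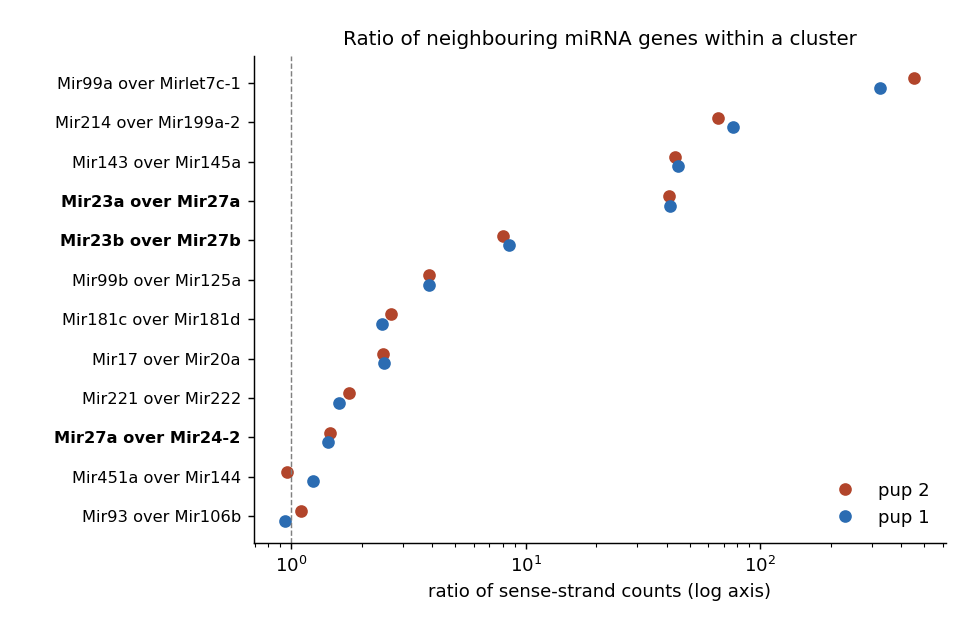
Ratio of the counts of miRNA genes of the same cluster, not all of them adjacent, on a log axis. Each row has a point for pup 2 (upper) and pup 1 (lower). Mir23a over Mir27a, Mir23b over Mir27b and Mir27a over Mir24-2 are in bold, and Mir27b over Mir24-1 is not drawn. Mir23a over Mir27a (40.8 and 41.2) lies beside Mir143 over Mir145a (43.2 and 44.5), and Mir23b over Mir27b (7.99 and 8.46) lies in between these and the more even pairs.

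Set beside all genes, the members differed little between the littermates. The log2 ratios of pup 2 over pup 1, after TMM scaling, were -0.13 for Mir23b (counting SE 0.0068), -0.05 for Mir27b (0.019), -0.06 for Mir3074-1 (0.24), 0.0077 for Mir23a (0.0068), 0.021 for Mir27a (0.043) and -0.0076 for Mir24-2 (0.052). Their median was -0.03 and their median absolute value 0.036, against 0.034 and 0.16 over the 362 genes with at least 10 counts in all. Most of those genes had fewer reads, with a median level of 54.3 CPM against 1359 CPM for the members. Over all levels, 57.5% of those genes had a larger absolute ratio than Mir23b, and 97.8% a larger one than Mir23a. Ratios of genes with few reads carry more counting noise. These percentages therefore do not place a member among genes of its own level. Mir24-1 had a log2 ratio of -0.35 (counting SE 0.16), which 26.8% of the tested genes exceeded in size.

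Each gene's counts in the libraries were compared by an exact conditional binomial test, two-sided, with p adjusted by Benjamini-Hochberg over the 362 genes. Of the 6 members 2 passed, Mir23b (adjusted p = 2.47e-83) and Mir27b (adjusted p = 0.0322), both lower in pup 2. Of all tested genes 32.3% passed, 13.3% as lower in pup 2. This test sets the libraries against read counting noise alone, at 1 library a side, and compares no condition. Beyond counting noise, edgeR put the spread between these libraries at a coefficient of variation of 13.2%. With that spread in edgeR's exact test, 5 genes or 1.38% passed and no member did (adjusted p = 1.0 for all 6). That spread was estimated from the same pair of libraries, so a gene of typical difference could hardly pass, and this count says little about the members. The signs for Mir23a and Mir27a turn with the scaling: with DESeq2 size factors they were -0.05 and -0.04, and Mir23a then passed the binomial test as well. With those factors, 49 of all genes passed as higher and 73 as lower in pup 2, against 69 and 48 with TMM.

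**Figure D5:**
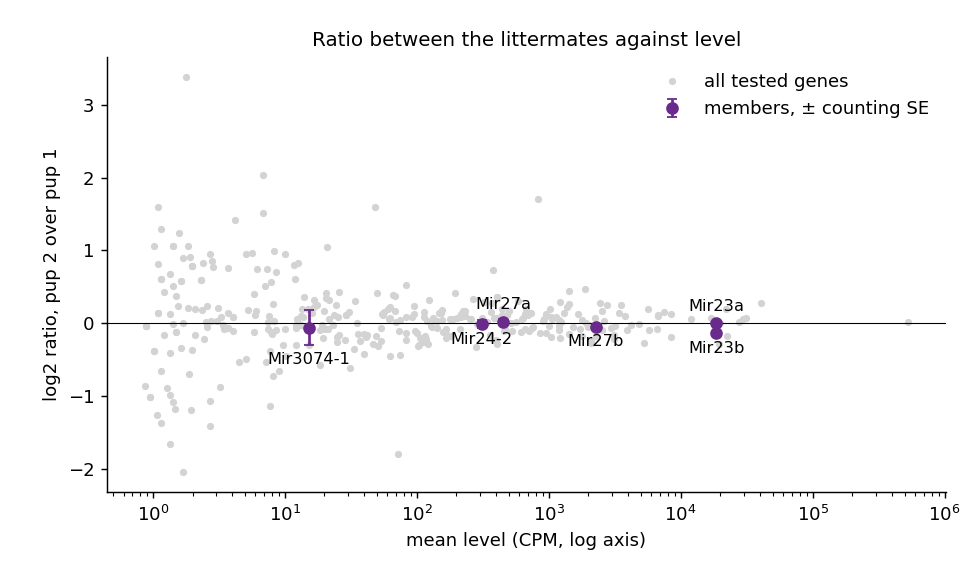
Log2 ratio of pup 2 over pup 1 against mean CPM on a log axis for the 362 tested genes (grey) and the 6 member genes (purple, bars ± counting SE). The members lie close to 0, from -0.13 for Mir23b to 0.021 for Mir27a, among grey points of like level.

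Other miRNA genes known from blood vessels were taken as a list. Of its 16 symbols 13 were found, and all 13 genes were detected. Mir92a-1 and Mir92a-2 were not found under those symbols. Genes named Mir92-1 and Mir92-2 were counted, at 498.8 ± 36.5 and 16.2 ± 0.866 CPM, but are left out of the values for the list. Together the 13 held 45221 CPM in pup 2 against 43640.3 CPM in pup 1, of the same order as the clusters described here. Mir126a, the miRNA of endothelial cells in the Egfl7 gene, had 19646 CPM in pup 2 against 19915 CPM in pup 1, at rank 8. Its range overlaps those of Mir22 and Mir23b and lies above both values of Mir23a. Compared within the same library, Mir126a exceeded Mir23b in both pups, though only narrowly in pup 1. Mir22 was below Mir126a in pup 2 and above it in pup 1, so the order of Mir126a and Mir22 is not resolved. Mir130a had 8768 CPM in pup 2 against 8156 CPM in pup 1. Mir221, known from human endothelial cells as a brake on vessel growth, had 293.4 CPM in pup 2 against 236.8 CPM in pup 1. Of the 13, 5 passed the binomial test as higher in pup 2 (19.1% of all tested genes did) and 1 as lower, Mir296 (13.3% did). The median level of the 13 was 265.1 CPM, against 54.3 CPM over the tested genes. Genes with more reads pass a test against counting noise more easily, so these shares are not like for like. The split into higher and lower also turns with the scaling, as given above for all genes. Outside the 13, Mir92-1 passed as higher in pup 2 and Mir92-2 did not pass. Mir128-1, whose arm miR-128-3p shares a run of 8 bases with miR-27a-3p but has the seed CACAGUG, had 29.1 CPM in pup 2 against 22.0 CPM in pup 1. Mir128-2 had 5 counts in each pup.

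The libraries held 3636650 sense-strand gene counts in pup 2 and 7460621 in pup 1. Smooth muscle miRNAs made up 53.7% of counts, almost all of it Mir143. Of the 3 smooth muscle genes listed, Mir145b was not detected. All 7 epithelial genes listed and all 4 mesenchymal genes were detected. Of the markers of other cells, the 5 measured blood genes held 2286 CPM in pup 2 against 1124 CPM in pup 1. The blood genes were uneven: Mir223 had 1274 CPM in pup 2 against 396.2 CPM in pup 1. In the same order, Mir144 had 471.0 against 288.3 CPM and Mir451a 452.3 against 357.1 CPM. Mir486, at 56.9 against 53.1 CPM, and Mir150, at 31.9 against 29.1 CPM, differed little. Mir122 of liver held 31.6 CPM in pup 2 against 111.8 CPM in pup 1. Striated muscle genes held 93.2 CPM in pup 2 against 107.4 CPM in pup 1 as a sum, and 4 of the 7 measured were detected. Of these, Mir499 and Mir208a had higher levels in pup 2, and Mir208b and Mir206 lower ones. Of the 6 measured neuron genes, Mir137 was detected at 37.4 CPM in pup 2 against 42.4 CPM in pup 1. The other 5, of Mir124a and Mir9, were at 0 in both pups, although near-identical copies make that count uncertain. The part of blood or liver RNA in the Mir23b difference was not tested.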

How the data were processed

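The authors deposited 1 table per library with raw counts per miRNA gene, aligned to mm10 with GENCODE M4 genes per the file headers of the accompanying text. Aligner, counter and read filters: not given in the sources used here. Columns have no header; both-strand, sense and opposite-strand counts were told apart by their values. Lines that name no gene (unmapped, mapped to several places, no feature) stayed out of totals and tests. They were 7.32%, 24.8% and 3.07% of reads in pup 2 and 8.19%, 22.7% and 3.22% in pup 1. Symbols came from GENCODE M21 by gene number (1894 of 1973 matched) and sequences from RefSeq.

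Log2 ratios used edgeR 4.0.16 TMM sizes computed on genes with at least 10 counts in all and a prior count of 0.5. The adjusted p threshold was 0.05. DESeq2 1.42.0 gave alternative size factors. The remaining steps used scipy 1.17.1 and matplotlib 3.10.9. Counts simulated with counting noise alone and known fold changes were used to check the binomial test. That check does not cover spread between libraries, as the simulation held none. Genes named are mainly the members, the genes next to them in mean level and fixed lists. The others share a seed, overlap a locus or bear on a listed gene, as Mir92-1, Mir18, Mir19a and Mirlet7c-2 do. Members and lists were chosen with earlier results of these data known. Library sizes of 3636650 and 7460621 counts set the precision.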

Additional observations from a re-analysis of the deposited data

How the results depend on the processing

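The summed level of the Mir23b cluster ran from 19891 to 22039 CPM and that of the Mir23a cluster from 19168.5 to 19385 CPM when either pup was left out. Leaving Mir143 out of the totals raised them to 44127 and 40567 CPM, since Mir143 holds over 50% of counts; with both strands counted the Mir23a cluster was at 18664 CPM. TMM sizes moved neither by more than its SD. The count of genes that differ between the pups was 117 and stayed between 118 and 125 with DESeq2 size factors, total counts, count minimums of 1 or 100 and both strands, but fell to 5 with edgeR's exact test and common dispersion, which was estimated from the same pair of libraries. No leave-one-out value exists for that count, which needs both pups. The log2 ratio of Mir23a turned to -0.0529 with DESeq2 size factors, -0.0162 with total counts, -0.0549 with a count minimum of 1, -0.0135 with a minimum of 100 and -0.00180 with both strands, and that of Mir27a to -0.0393, -0.00257 and -0.0412 under the first 3 of these; a ratio this near 0 takes its sign from the scaling. Mir23a passed the binomial test with DESeq2 size factors, total counts and a count minimum of 1. Mir23b and Mir27b stayed lower in pup 2 under all of these and lost their calls only in edgeR's exact test. No paired analysis was possible because there is 1 group. Depth limits Mir3074-1 and Mir24-1 most, with 54 and 108 counts in pup 2.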
